A study of Mus musculus with 14 samples.

Results

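Lysosomes are acidic organelles in which hydrolases break down proteins, lipids and glycans, and autophagy is the route by which a cell wraps its own material in a membrane and delivers it to them. Many genes of both systems are known targets of the MiT/TFE transcription factors TFEB, TFE3, MITF and TFEC, which bind E-box sequences near gene starts. The kinase mTORC1, recruited to the lysosome by Rag GTPases, keeps TFEB and TFE3 in the cytoplasm while nutrients are plentiful. In melanocytes, MITF also drives pigment genes, and macrophages are known for a large lysosomal compartment.

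The set described here holds 41 named lysosome and autophagy genes, chosen by symbol as genes linked to the MiT/TFE factors. All 41 were found among the 18481 genes listed. They fall into 8 roles: 5 regulators (Tfeb, Tfe3, and Rragd, Flcn and Fnip2 of the Rag pathway), the calcium channel gene Mcoln1, 5 glycosidases, 2 membrane glycoproteins, 7 proteases, 7 genes of lipid handling and lysosomal storage, 3 proton pump subunits and 11 genes of the autophagy machinery. The channel, enzyme, membrane, lipid and pump genes, 25 in all, are called the lysosomal genes below.

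RNA was sequenced from 14 whole tumours. SMM102 cells, an established mouse melanoma line, had been injected subcutaneously at 2 sites into female C57BL/6J mice aged 6 to 8 weeks. Treatment with PLX4032 (the BRAF inhibitor vemurafenib; 50 mg/kg into the peritoneal cavity, 5 days a week) began at 150 to 300 mm3. PLX4032 tumours were taken at days 3, 6 and 18 (n = 2 each) and at day 27 (n = 4, from the left and right sides of 2 mice). Control tumours were taken at day 3 (n = 2) and day 6 (n = 2), and are given as untreated by the sample labels but as vehicle-treated by the design text. No control was taken later, so treatment and time cannot be told apart at days 18 and 27. Table columns name a group but no animal, so tumour numbers are only names. In the sample titles 1 animal number appears both on a control of day 6 and on a PLX4032 tumour of day 3, and whether these came from 1 animal is not stated. The day 27 tumours were tested as 4 samples, which makes p-values that include them too small, and they give 3 of the 8 degrees of freedom of the spread that all tests share. Whether the day 18 tumours came from separate mice is not stated either, so p-values reflect only how far these tumours spread.

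The deposited values are expression per gene on a per-length, per-million scale, with column sums from 879385 to 1084401 and unknown read depth. Differences are in log2(value + 1) from limma, with a standard error (SE) and a 2-sided p-value adjusted by Benjamini-Hochberg over all 15841 genes with 2 or more tumours at a value of 1 or above. A gene is said to have risen or fallen where the adjusted p was under 0.05, and differences understate the fold of genes with low values. All 41 genes were tested, but Rragd and Atp6v0d2 reached 1 in 3 tumours each, among them both PLX4032 tumours of day 3, and would not have been tested without that group. As bulk RNA cannot separate them, fewer cells of a type and less RNA per cell cannot be told apart in any value below. Of 8 melanocyte markers, Mlana, Dct, Tyr, Tyrp1 and Mc1r were not among the genes listed. The other 3 (Mitf, Sox10 and Pmel) summed to 3.29 to 5.33 in the controls, with Sox10 at 0.0339 to 0.177, so the melanoma label could not be checked by pigment genes.

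E-boxes of the kind that MiT/TFE factors bind are shown first, because they mark which of these genes carry the known binding letters next to their start. Windows from 250 bases before to 50 after the RefSeq gene starts (build GRCm38.p6) were found for 34 of the 41 genes and searched on both strands. The core CACGTG was in the windows of 10 of 34 genes (29.4%) and of 8.09% of all 27025 genes with a window. The longer TCACGTG, which contains the core, was in 9 of 34 (26.5%) against 4.29% of all genes. The 10-base palindrome with GT before and AC after the core was in 1 gene, Cln3 (2.94%), against 0.37% of all genes. By role, the core stood in 3 of 5 glycosidase windows, 3 of 6 protease windows, 1 of 2 membrane glycoprotein windows, 1 of 5 lipid windows, and in those of Mcoln1 and Atp6v0d1. It was in none of the 9 autophagy windows and none of the 5 regulator windows. The set was chosen as genes linked to factors that bind this sequence, so its shares beside those of all genes are no test of that link. A match is a description of the letters, not of binding.

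The 5 genes printed here as 30-base stretches were picked with their values known: Cln3 for the palindrome, Ctsd, Ctsa and Mcoln1 as genes that rose at day 3, and Ctsl as the gene that fell. The windows of Ctsd, Ctsa and Mcoln1 each hold a further core that is not printed. Each stretch runs 5′ to 3′ on the gene's own strand, from RefSeq on GRCm38.p6, with the core in capitals. Distances are counted from the RefSeq start. GENCODE, used for the gene positions below, places the start of all 5 genes further upstream, so these stretches lie inside its gene bounds. Whether they touch annotated exons was not looked up.
Cln3, chr7:126583340-126583369, minus strand, core 121 bases before the start: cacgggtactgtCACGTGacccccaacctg
Cln3, chr7:126583368-126583397, minus strand, core 149 bases before the start: gcaaccctcaagCACGTGatggaaggctca
Ctsd, chr7:142387908-142387937, minus strand, core 98 bases before the start: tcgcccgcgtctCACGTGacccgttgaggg
Ctsa, chr2:164833749-164833778, plus strand, core 12 bases before the start: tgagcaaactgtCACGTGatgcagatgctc
Mcoln1, chr8:3500462-3500491, plus strand, core 45 bases before the start: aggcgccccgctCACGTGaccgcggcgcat
Ctsl, chr13:64370739-64370768, minus strand, core 236 bases before the start: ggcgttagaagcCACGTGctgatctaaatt
The Ctsl core is the only one among the 10 genes that has no T before it on either strand.

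Lamp1 held more cores than any other of these genes, 4 within an 80-base stretch that ends next to its annotated start and touches no annotated exon.
Lamp1, chr8:13159081-13159160, plus strand: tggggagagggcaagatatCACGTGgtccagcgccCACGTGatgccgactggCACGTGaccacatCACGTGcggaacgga

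The first comparison asked how these genes stood after 3 days of BRAF inhibition. Of the 41 genes, 27 rose, 1 fell and 13 did not pass the test, against 24.9% higher and 20.8% lower among all genes tested. Their median difference was 0.56, and that of all genes 0.02. Without Rragd and Atp6v0d2 the counts were 25 higher and 1 lower of 39. The lysosomal genes made up most of the rises, with 19 of 25 higher, 1 lower and a median of 0.84. Atp6v0d2, among these 19, was tested only because of the PLX4032 tumours of day 3. All 5 regulators rose, 1 of which, Rragd, was tested only because of those day 3 tumours. Of the 11 autophagy genes 3 rose, with a median of 0.24.

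**Figure D1:**
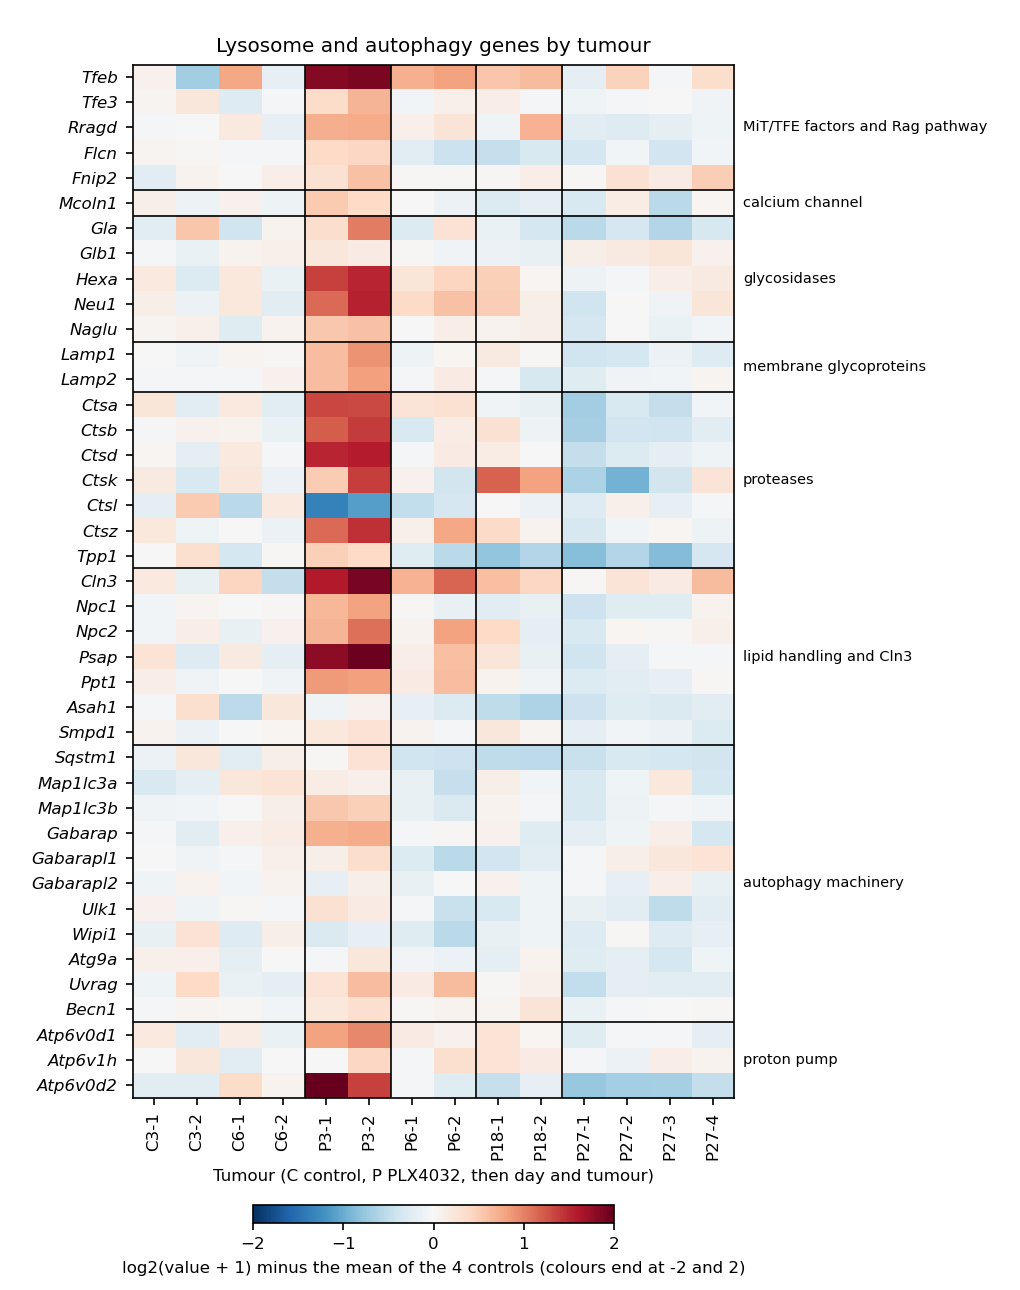
Distance of each of the 41 genes (rows, by role) from the mean of the 4 control tumours in log2(value + 1), in each of the 14 tumours (columns; C control, P PLX4032, then day and tumour). The 2 PLX4032 tumours of day 3 stand out in red for most lysosomal genes and in blue for Ctsl.

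Among the regulators, Tfeb encodes a factor that switches on lysosomal genes and lies at chr17:47737030-47792419 (GRCm38, plus strand). Its values were 5.79 and 2.93 in the day 3 controls, 9.87 and 4.71 in the day 6 controls, and 21.7 and 22.6 in the PLX4032 tumours of day 3. The treated tumours lay close together and above every control. The difference was 1.86 (SE 0.28, adjusted p = 0.00062), or 3.8 times the control mean of 5.83 ± 2.9 (SD, n = 4). Tfe3, the related factor on the X chromosome, was 38.5 and 43.7 in the day 3 controls, 30.7 and 36.4 in the day 6 controls, and 48.1 and 59.8 under PLX4032. It rose by 0.52 (SE 0.11, adjusted p = 0.0033), and the groups did not overlap. Rragd, a Rag GTPase gene, stood at 1.22 and 1.25 against 0.204 to 0.545 in the controls, a difference of 0.73 (SE 0.19, adjusted p = 0.010) at a level where the scale compresses differences. Flcn and Fnip2, whose products form a complex that acts on Rag GTPases, rose by 0.40 (SE 0.12, adjusted p = 0.015) and 0.45 (SE 0.15, adjusted p = 0.032). The Fnip2 call was lost in 9 of 29 alternatives, that of Flcn in 3 of 29 and that of Rragd in 3 of 28, in each case also without PLX4032 day 3 tumour 2. The Tfe3 call was lost in 1 of 29, which was the fit without that tumour.

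Mitf and Tfec, the MiT/TFE factors outside the set, rose as well. Mitf was 2.76 and 4.73, then 2.96 and 3.8 in the controls of days 3 and 6, and 6.55 and 10.4 under PLX4032 at day 3 (difference 1.04, SE 0.27, adjusted p = 0.0093). Tfec, which is known from macrophages and osteoclasts, was 1.49 to 5.41 in the controls and 13.5 and 19.5 under PLX4032 (2.01, SE 0.39, adjusted p = 0.0020).

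Psap and Ctsd showed the clearest changes among the lysosomal genes. Psap encodes prosaposin, the precursor of the proteins that present sphingolipids to hydrolases (chr10:60277627-60302597). It had 995 and 688 in the day 3 controls, 934 and 716 in the day 6 controls, and 2830.1 and 3197 in the PLX4032 tumours of day 3. Both treated tumours were far above every control, with a difference of 1.87 (SE 0.20, adjusted p = 9.8e-05). Ctsd, an aspartic protease (chr7:142375911-142388038), had 424 and 362, then 471.5 and 403 in the controls, and 1183 and 1235 under PLX4032. That is 2.91 times the control mean of 415 ± 46 (SD, n = 4), a difference of 1.55 (SE 0.13, adjusted p = 1.9e-05).

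The other cathepsins that rose were Ctsa, a carboxypeptidase that also shields neuraminidase (523.5 and 521 against 177 to 247 in the controls), Ctsb (811 and 925 against 319.6 to 371.5), Ctsz (636 and 799.7 against 265 to 334) and Ctsk. Their differences were 1.33 (SE 0.18, adjusted p = 0.00036) for Ctsa, 1.30 (SE 0.16, adjusted p = 0.00024) for Ctsb and 1.30 (SE 0.19, adjusted p = 0.00048) for Ctsz. Ctsk, the collagen-degrading protease of osteoclasts, was uneven, with 50.4 and 93.1 under PLX4032 and 28.3 to 41.2 in the controls (0.95, SE 0.33, adjusted p = 0.037). Without PLX4032 day 3 tumour 2, or without either second control tumour, the Ctsk call was lost, as it was in 7 of 29 alternatives in all. Tpp1, a tripeptidyl peptidase, was 154 and 146 against 86.9 to 138.8, above every control but not past the test (0.44, SE 0.17, adjusted p = 0.062).

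Ctsl, a cysteine protease with the highest control mean of the set, went the other way. It was 2049 and 3335 in the day 3 controls, 1604 and 2664 in the day 6 controls, and 915 and 1086 in the PLX4032 tumours of day 3. The groups did not overlap, and the treated mean was 0.415 times the control mean of 2413 ± 753 (SD, n = 4). The difference was -1.22 (SE 0.23, adjusted p = 0.0017), negative and past the test in all 29 alternatives. Its exons share 977 bases with an antisense gene and 395 with another gene on its own strand, and the sources used here do not say whether counting used the strand. Other genes of the set have such overlaps too. Antisense genes share bases with exons of Uvrag (840), Ctsb (774), Sqstm1 (580), Gabarapl1 (570), Cln3 (442) and Ctsa (up to 324). Ctsd shares 227 bases with a gene on its own strand, while Psap and Tfeb have no overlap.

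Of the glycosidases, which strip sugars from glycans and glycolipids, Hexa, Neu1, Naglu and Glb1 rose. Hexa, a hexosaminidase subunit, was 112 and 81.6, then 114 and 89.4 in the controls, and 256 and 284 under PLX4032 (1.45, SE 0.17, adjusted p = 0.00014). Neu1, a sialidase, went from 11.6 to 15.8 in the controls to 30.7 and 40.9 (1.33, SE 0.20, adjusted p = 0.00060). Glb1, a beta-galactosidase, moved least, from 50.3 to 59.1 in the controls to 65.0 and 61.6 (0.20, SE 0.07, adjusted p = 0.045), and its call was lost in 18 of 29 alternatives. Gla, an alpha-galactosidase, overlapped the controls and did not pass the test (0.69, SE 0.26, adjusted p = 0.053).

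Both membrane glycoprotein genes rose in step. Lamp1 (chr8:13159161-13175338) was 374 and 355, then 387 and 382 in the controls, and 573 and 695 under PLX4032, a difference of 0.75 (SE 0.11, adjusted p = 0.00044). Lamp2 was 174 to 190.0 in the controls and 274 and 316 under PLX4032, a difference of 0.72 (SE 0.11, adjusted p = 0.00070). These products line the inner face of the lysosomal membrane, and the controls were narrow for both. Mcoln1, the calcium channel of that membrane, was 60.3 and 51.4, then 59.1 and 51.6 in the controls, and 80.1 and 73.6 under PLX4032 (0.46, SE 0.17, adjusted p = 0.045). It stood above every control, but its call was lost in 16 of 29 alternatives.

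Cln3, a lysosomal membrane protein whose loss causes a storage disease of neurons, was 34.1 and 26.8 in the day 3 controls, 40.4 and 21.0 in the day 6 controls, and 91.4 and 114 under PLX4032. The difference was 1.75 (SE 0.25, adjusted p = 0.00047). Npc1 and Npc2, which export cholesterol from the lysosome, rose by 0.73 (SE 0.13, adjusted p = 0.0011) and 0.89 (SE 0.22, adjusted p = 0.0079). The Npc2 call was lost in 1 of 29 alternatives, the fit without PLX4032 day 3 tumour 2. Ppt1, a thioesterase that removes palmitate from proteins, rose by 0.84 (SE 0.13, adjusted p = 0.00064). Asah1, an acid ceramidase, overlapped the controls at 149 and 166 against 109 to 196 (0.00, SE 0.17, adjusted p = 0.99), and Smpd1, an acid sphingomyelinase, differed by 0.24 (SE 0.10, adjusted p = 0.060).

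The proton pump that acidifies the lysosome was represented by 3 subunit genes. Atp6v0d2, the d2 subunit known from osteoclasts and macrophages, was 0.620 and 0.613, then 1.44 and 0.988 in the controls, and 7.84 and 3.88 under PLX4032. It rose by 1.80 (SE 0.22, adjusted p = 0.00020) from a level near the lowest that was tested, and was tested only because of those PLX4032 tumours. Atp6v0d1, the d1 subunit, rose by 0.88 (SE 0.13, adjusted p = 0.00057), and Atp6v1h overlapped the controls (0.21, SE 0.14, adjusted p = 0.24).

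**Figure D2:**
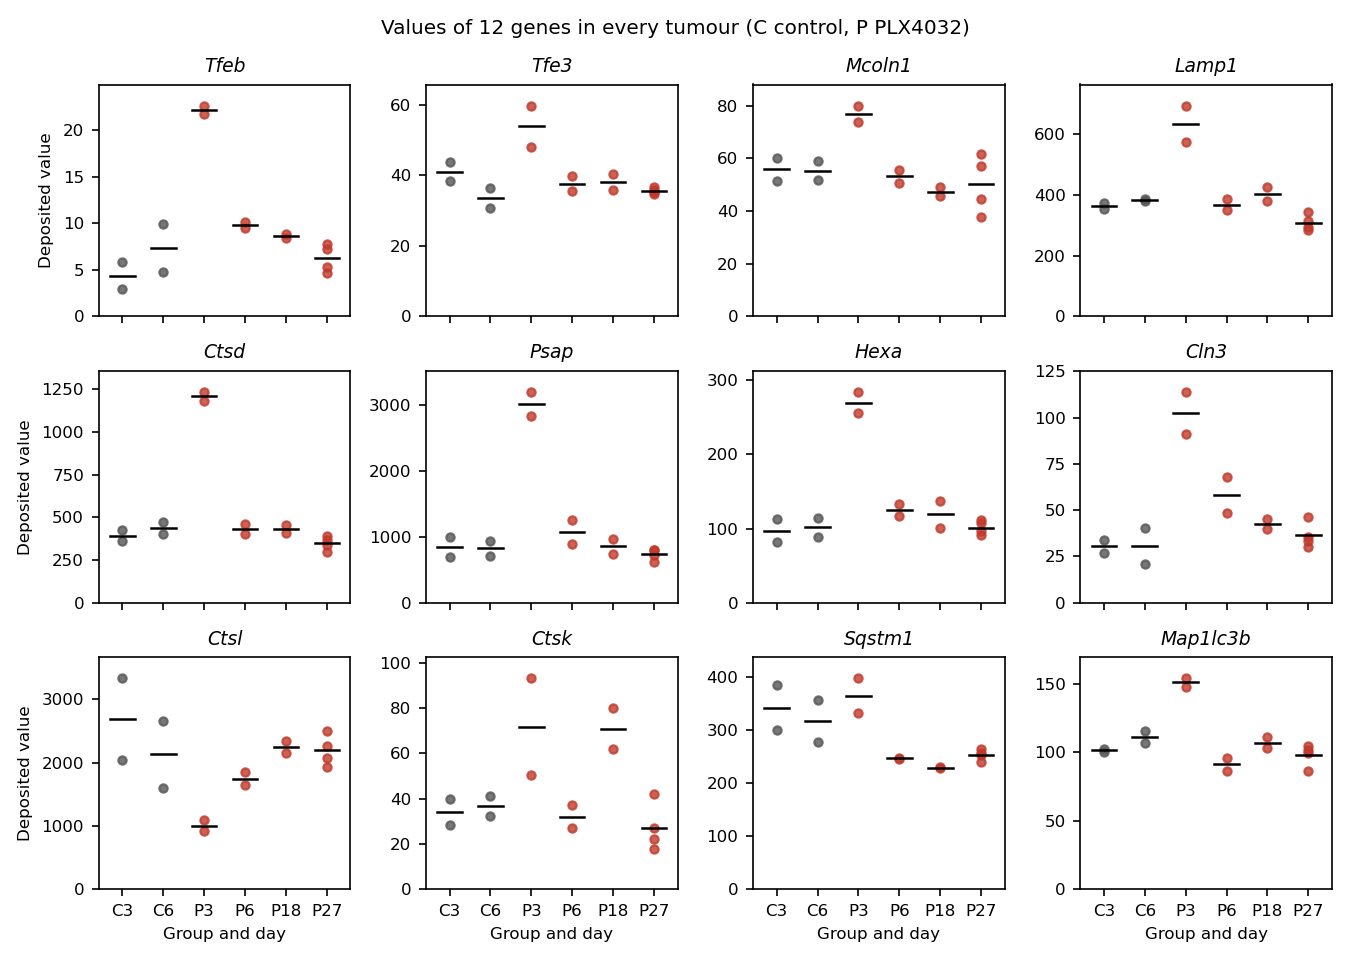
Deposited values (vertical axes, from 0) of 12 genes in every tumour by group and day; each point is 1 tumour and each bar a group mean. Psap reaches 2830.1 and 3197 in the day 3 PLX4032 tumours, above all other tumours, while Ctsl has its 2 lowest values there.

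Of the autophagy machinery, 3 of 11 genes rose and 0 fell, a share near the 24.9% of all genes that were higher. Gabarap and Map1lc3b, which encode ubiquitin-like proteins that are attached to the autophagosome membrane, and Becn1, a subunit of the lipid kinase that starts it, were those that rose. Gabarap was 282 and 249, then 308 and 318 in the controls, and 472 and 481 under PLX4032 (0.72, SE 0.13, adjusted p = 0.0013). Map1lc3b was 100.5 and 102, then 107 and 115 in the controls, and 154 and 148 under PLX4032 (0.50, SE 0.09, adjusted p = 0.0013). Becn1 was 104 to 113 in the controls and 125 and 137 under PLX4032 (0.27, SE 0.08, adjusted p = 0.019); its exons share 1297 bases with an antisense gene, and its call was lost in 6 of 29 alternatives. Sqstm1, the p62 cargo receptor, was 299 and 384, then 277 and 355 in the controls, and 331 and 397 under PLX4032, an overlap with a difference of 0.15 (SE 0.13, adjusted p = 0.35). Gabarapl1 was 76.9 and 91.2 against 67.6 to 76.6, above every control by a small margin (0.24, SE 0.12, adjusted p = 0.12). Map1lc3a, Gabarapl2, Ulk1, Wipi1, Atg9a and Uvrag lay between -0.23 and 0.44, and none passed the test.

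**Figure D3:**
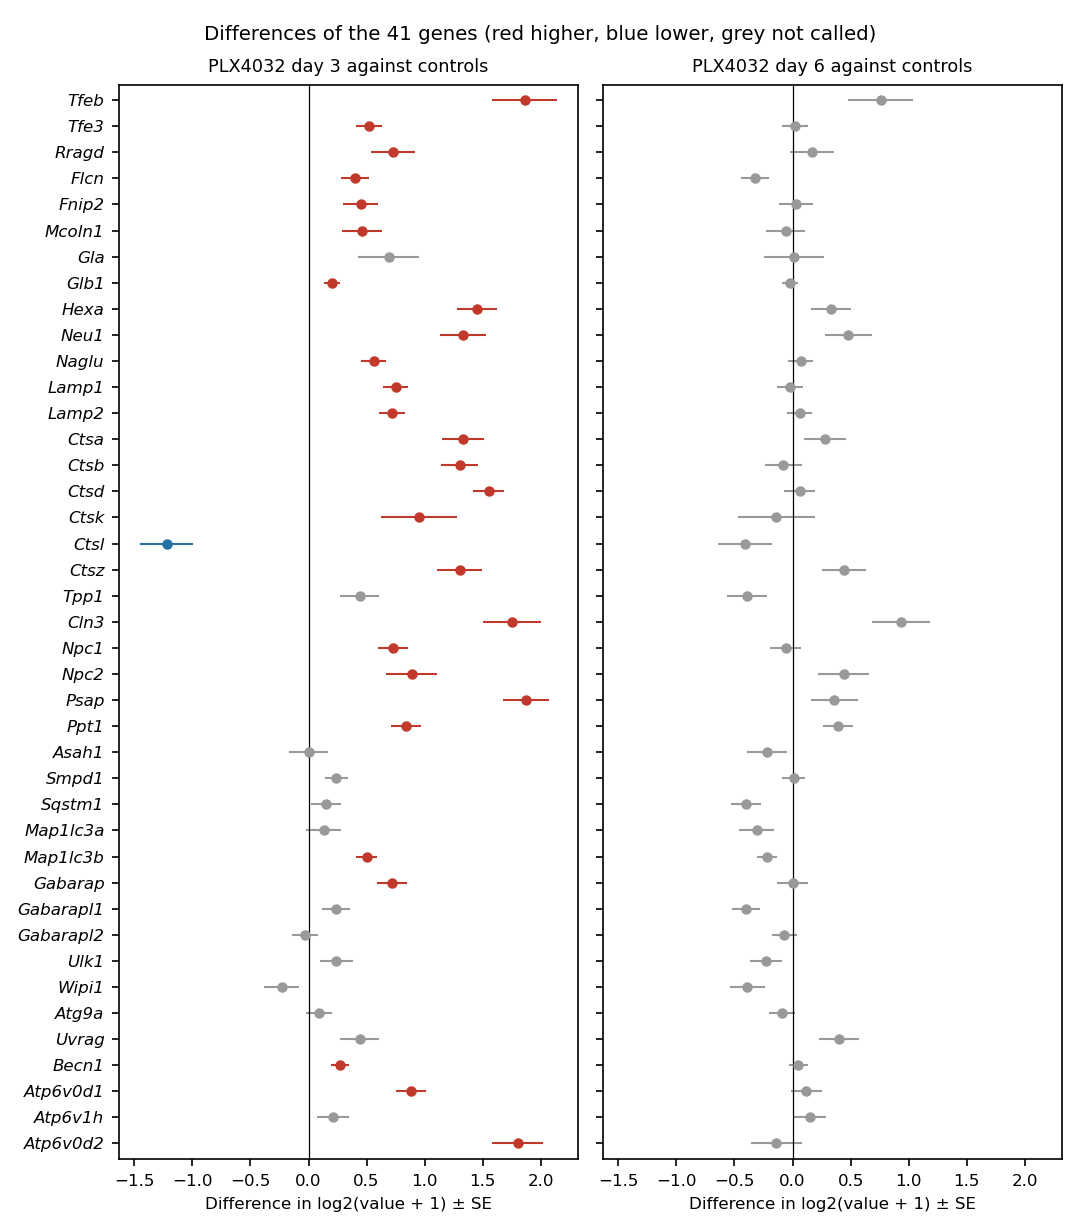
Difference from the controls in log2(value + 1) with its SE for each of the 41 genes at day 3 (left) and day 6 (right), coloured by call. At day 3 the points run from -1.22 for Ctsl to 1.87 for Psap, and at day 6, against the same 4 controls, from -0.41 to 0.93 with no call.

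At day 3, all 27 genes that rose had both treated tumours above all 4 controls. Tpp1, Smpd1, Gabarapl1 and Ulk1 did too without passing the test, which makes 31 of 41, and Ctsl alone lay below all controls. Among all genes tested, 31.2% lay above and 27.8% below all controls. Without PLX4032 day 3 tumour 2 the number of genes called went from 28 to 19. Of the 28 genes called, 19 held their call in all alternatives run, and no gene changed direction.

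Markers of other cells moved with these genes. The summed value of 20 macrophage and monocyte markers was 2911 and 1313 in the day 3 controls, 3336 and 1120.2 in the day 6 controls, and 11300.4 and 17203 in the PLX4032 tumours of day 3, where 19 of 20 rose. Cd68, itself a lysosomal glycoprotein of macrophages, was 37.9 to 97.0 in the controls and 367 and 405 there. None of the 20 was at 0 in any tumour. All 10 T and NK cell markers rose (sums 32.8 to 65.9 in the controls, 298 and 513 under PLX4032), as did 7 of 10 fibroblast markers, with 1 lower (3355 to 4624, then 6242 and 8329). Of the others, 6 of 7 endothelial, 5 of 9 adipocyte, 1 of 4 osteoclast and giant cell and 0 of 8 skeletal muscle markers rose; the muscle sums were 922 and 814 against 42.8 to 331 in the controls. All 8 markers of cycling cells fell, with sums of 718 to 949 in the controls and 214 and 219 under PLX4032. The part of these cells in the lysosomal differences was not tested.

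The same values can be set side by side in single tumours. Control day 6 tumours 1 and 2 had macrophage sums of 3336 and 1120.2, with Psap at 934 and 716, Ctsd at 471.5 and 403, and Lamp1 at 387 and 382, each higher in tumour 1. Other lysosomal genes, among them Ctsl, Npc2, Lamp2, Tpp1 and Asah1, were lower in tumour 1 than in tumour 2. The median log2 distance of the 25 lysosomal genes from the control mean was 0.05 in tumour 1 and 0.0 in tumour 2. In control day 3 tumours 1 and 2, with macrophage sums of 2911 and 1313, this median was 0.04 and -0.09. Psap (995 and 688), Ctsd (424 and 362), Lamp1 (374 and 355) and Lamp2 (176 and 175) were higher in tumour 1 of that pair. Ctsl, Npc2, Tpp1 and Asah1 were lower in it. At day 6, PLX4032 tumours 1 and 2 had macrophage sums of 3850.0 and 6120, both above every control. Of the 25 lysosomal genes, 6 and 12 were above every control there, 17 and 8 within the range of the controls and 2 and 5 below it. Psap (1249), Ctsz (496), Npc2 (418), Ppt1 (85.1), Cln3 (67.8) and Hexa (133) were among those above in tumour 2, and Ctsd (463) and Lamp1 (386.5) among those within. Shares over all genes were not computed for single tumours, so these counts have no background to be read against. In both day 6 tumours together, 5 of the 41 genes lay above and 4 below every control, against 16.2% and 12.8% of all genes tested.

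**Figure D4:**
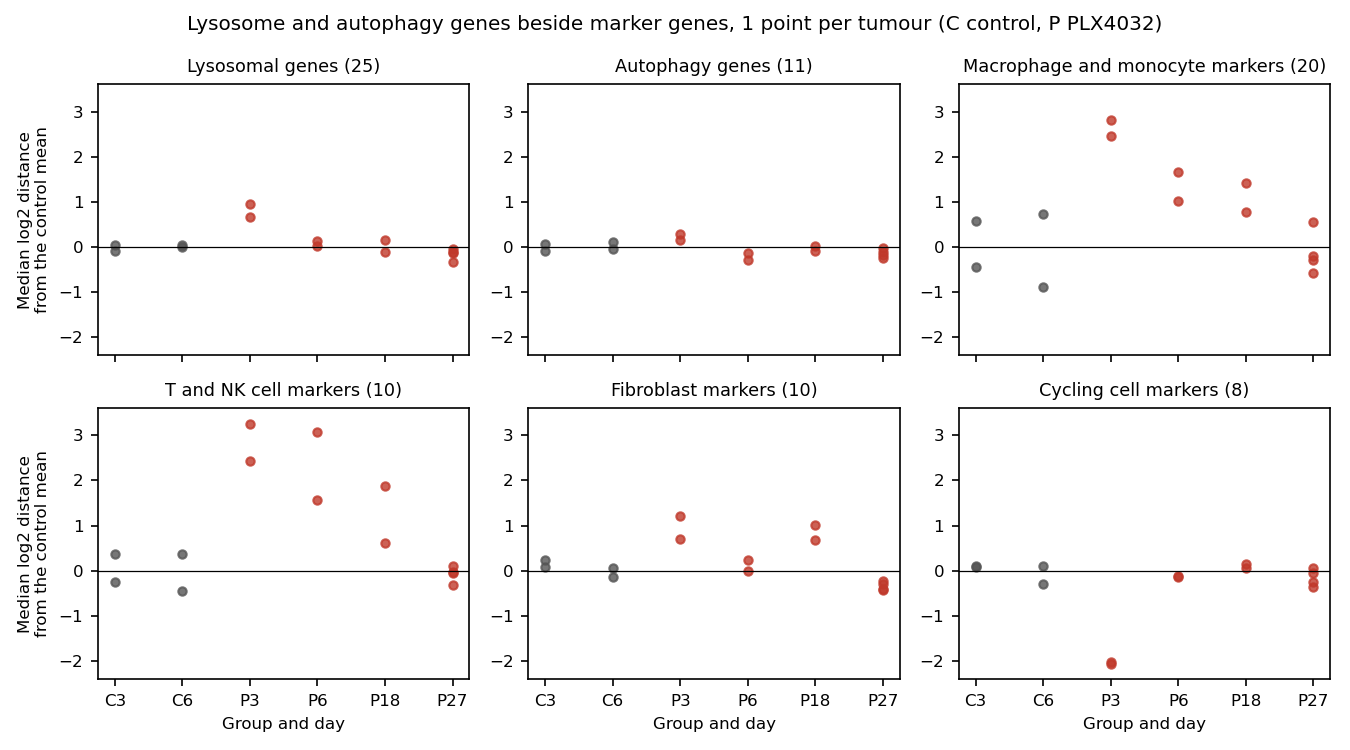
Median log2 distance from the control mean for the 25 lysosomal genes, the 11 autophagy genes and 4 lists of marker genes, with 1 point per tumour by group and day. Lysosomal genes are at 0.66 and 0.95 in the day 3 PLX4032 tumours and at 0.03 and 0.14 at day 6, where the macrophage and the T and NK cell markers are still above every control.

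By day 6 none of the 41 genes passed the test against the same controls (limma, 12 at an unadjusted p under 0.05), where 5.92% of all genes were called. The median difference was 0.01, equal to that of all genes. Cln3 was the furthest above, at 48.6 and 67.8 against 21.0 to 40.4 in the controls (0.93, SE 0.25, adjusted p = 0.054). Neu1, Hexa, Ppt1 and Ctsa were also above every control in both tumours. Sqstm1, at 247.5 and 245.7, lay below every control (-0.40, SE 0.13, adjusted p = 0.082), as did Gabarapl1 (-0.40, SE 0.12, adjusted p = 0.066), Map1lc3b (-0.22, SE 0.09, adjusted p = 0.18) and Flcn. That makes 5 of the 41 genes above and 4 below every control, against 16.2% and 12.8% of all genes tested. Tfeb, at 9.48 and 10.1, overlapped the controls (0.76, SE 0.28, adjusted p = 0.14). Most other genes stood close to their controls: Tfe3 at 0.02 (SE 0.11, adjusted p = 0.95), Mcoln1 at -0.06 (SE 0.17, adjusted p = 0.89), Lamp1 at -0.02 (SE 0.11, adjusted p = 0.93), Ctsd at 0.06 (SE 0.13, adjusted p = 0.83), Ctsk at -0.14 (SE 0.33, adjusted p = 0.86) and Atp6v0d2 at -0.14 (SE 0.22, adjusted p = 0.79). The count of 0 became 5 without control day 6 tumour 1, 3 without PLX4032 day 6 tumour 1 and 1 without control day 3 tumour 1.

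The direct comparison of PLX4032 day 6 with day 3, added after the data were seen, uses no control. In it 21 of the 41 genes fell and 0 rose, against 7.34% lower and 10.9% higher among all genes, with medians of -0.64 for the set and -0.05 for all genes. Without Rragd and Atp6v0d2 the count was 20 of 39. The 2 days did not overlap in any of the 21, nor in 15 of the other 20, and in 62.6% of all genes they did not either. Atp6v0d2, which was tested only because it was high at day 3, was 0.860 and 0.586 on day 6 (-1.94, SE 0.25, adjusted p = 0.00065). Psap went from 2830.1 and 3197 to 897 and 1249 (-1.51, SE 0.23, adjusted p = 0.0018), and Ctsd from 1183 and 1235 to 403 and 463 (-1.48, SE 0.15, adjusted p = 0.00012). Tfeb fell by 1.1 on the log2 scale (SE 0.33, adjusted p = 0.041), a call lost in 10 of 27 alternatives.

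Lysosomal membrane and autophagy genes were among the 21. Lamp1 went from 573 and 695 to 350.4 and 386.5 (-0.78, SE 0.12, adjusted p = 0.0021). Map1lc3b went from 154 and 148 to 95.9 and 86.5 (-0.72, SE 0.10, adjusted p = 0.0011), Gabarapl1 from 76.9 and 91.2 to 58.6 and 48.6 (-0.64, SE 0.14, adjusted p = 0.0096) and Sqstm1 from 331 and 397 to 247.5 and 245.7 (-0.55, SE 0.14, adjusted p = 0.025). Sqstm1 and Gabarapl1 had not risen at day 3 and were below every control at day 6. Ctsl went the opposite way from the rest, from 915 and 1086 to 1651 and 1845, without passing the test (0.81, SE 0.26, adjusted p = 0.057). Of the 21 genes, 7 held their call in all alternatives run, and Sqstm1 and Gabarapl1 lost theirs in 5 and 3 of 27. Without PLX4032 day 3 tumour 2 the count was 10 instead of 21.

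At day 18 no gene of the set rose and 2 fell, Tpp1 and Sqstm1, where 7.92% of all genes were called. Tpp1 was 63.3 and 73.2 against 86.9 to 138.8 in the controls (-0.69, SE 0.17, adjusted p = 0.037). Sqstm1 was 229 and 227 against 277 to 384 (-0.51, SE 0.13, adjusted p = 0.033). Both genes lay below every control, and their calls were lost in 9 and 10 of 29 alternatives. No gene was called without control day 3 tumour 2, control day 6 tumour 2, either day 18 tumour or PLX4032 day 27 tumour 1, while 1 was called without day 27 tumour 2 and 4 without control day 6 tumour 1. Only 1 of the 41 genes was above every control in both tumours, while 24.9% of all genes tested were. It was Ctsk, at 80.03 and 61.7 against 28.3 to 41.2, and it did not pass the test (0.99, SE 0.33, adjusted p = 0.088). The day 18 tumours also held summed adipocyte markers of 2728 and 2636 against 25.1 to 74.5 in the controls, with all 9 measured markers higher, and fibroblast sums of 7306 and 6153. Their part in the values of Ctsk, Tpp1 and Sqstm1 was not tested.

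Tfeb was 8.38 and 8.88 at day 18, within the range of the controls (0.59, SE 0.28, adjusted p = 0.19). Tfe3 (0.04, SE 0.11, adjusted p = 0.84), Lamp1 (0.10, SE 0.11, adjusted p = 0.55), Ctsd (0.07, SE 0.13, adjusted p = 0.75) and Map1lc3b (0.01, SE 0.09, adjusted p = 0.95) overlapped the controls as well. Mcoln1 (-0.23, SE 0.17, adjusted p = 0.40) and Gabarapl1 (-0.29, SE 0.12, adjusted p = 0.13) were below every control, and Atp6v0d2 was not called (-0.31, SE 0.22, adjusted p = 0.36). Below every control at day 18 were 6 of the 41 genes (Mcoln1, Gabarapl1, Tpp1, Sqstm1, Flcn and Npc1), against 13.5% of all genes tested.

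At day 27, Tpp1 fell and no gene rose, where 6.67% of all genes were called. Its values were 61.1, 73.2, 60.1 and 87.8, the last of them inside the range of the controls (-0.66, SE 0.14, adjusted p = 0.022). The Tpp1 call was lost under each of the 3 ways to average the 4 tumours into 2 mice. No gene was called without control day 3 tumour 2, control day 6 tumour 2, or day 27 tumour 1 or 3. The count was 2 without control day 3 tumour 1 or either PLX4032 day 3 tumour, and 3 without control day 6 tumour 1. Sqstm1, at 238.5 to 264, was below every control in all 4 tumours (-0.37, SE 0.10, adjusted p = 0.059), and so was Lamp1, at 283.5 to 344 (-0.28, SE 0.09, adjusted p = 0.085). Atp6v0d2 was 0.111 to 0.362, also below every control (-0.64, SE 0.18, adjusted p = 0.058). With Flcn, Ctsb, Ulk1 and Uvrag, 7 of the 41 genes lay below every control and 0 above, against 6.43% and 7.33% of all genes tested. The macrophage sum at day 27 was 1275 to 2558, within the range of the controls.

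Tfeb and other genes described above overlapped the controls at day 27, Tfeb at 4.62 to 7.81 (0.15, SE 0.23, adjusted p = 0.77), Tfe3 at 34.7 to 36.8 (-0.05, SE 0.09, adjusted p = 0.81), Mcoln1 at 37.8 to 61.5 (-0.16, SE 0.14, adjusted p = 0.55), Ctsd at 296 to 389 (-0.26, SE 0.10, adjusted p = 0.18), Ctsk at 17.6 to 42.1 (-0.42, SE 0.27, adjusted p = 0.42), Map1lc3b (-0.12, SE 0.07, adjusted p = 0.39) and Gabarapl1 (0.15, SE 0.10, adjusted p = 0.43).

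Late tumours (days 18 and 27) against early ones (days 3 and 6) had 26 genes lower and 1 higher, against 19.4% lower and 20.6% higher among all genes, with medians of -0.40 and 0.01. The early mean includes the day 3 tumours described above, so this comparison shares them with the day 3 result. Without Rragd and Atp6v0d2 the counts were 25 lower and 1 higher of 39. In 5 of the 41 genes every late tumour lay below every early one, against 5.83% of all genes tested. All 5 were among the 26 that were lower. They included Cln3 (-0.95, SE 0.19, adjusted p = 0.0034), Ctsa (-1.05, SE 0.14, adjusted p = 0.00045) and Tfeb (-0.93, SE 0.22, adjusted p = 0.0067). Psap was lower by a difference of -1.18 (SE 0.15, adjusted p = 0.00045). Atp6v0d2 also fell (-1.31, SE 0.17, adjusted p = 0.00039), from the day 3 values through which it came to be tested. Ctsl was the gene that rose, with 1939 to 2503 in the 6 late tumours and 915 to 1845 in the 4 early ones (0.75, SE 0.17, adjusted p = 0.0070). Uvrag, a gene of endosome and autophagosome maturation that had not passed the day 3 test, was lower late without overlap (-0.53, SE 0.13, adjusted p = 0.0089).

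Between the controls of day 6 and day 3, 0 of the 41 genes were called (limma, 2 at an unadjusted p under 0.05), and 0% of all genes were called (886 at an unadjusted p under 0.05). Tfeb differed by 0.61 (SE 0.33, adjusted p = 0.87) and Tfe3 by -0.29 (SE 0.13, adjusted p = 0.87). With 2 tumours on each side, only differences well above the spread could be seen.

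The rest of the pathway was read from 6 lists of 140 genes that leave out the set, of which the genes tested are counted here. At day 3, where 24.9% of all genes were higher and 20.8% lower, 31 of 35 other lysosomal hydrolases rose and 0 fell, with a median of 1.02. Lipa, the acid lipase that frees cholesterol and fatty acids, averaged 50.5 ± 3.6 (SD, n = 4) in the controls and 109 ± 0.52 (SD, n = 2) under PLX4032, a difference of 1.09 (SE 0.08, adjusted p = 1.4e-05). Acp2, an acid phosphatase, rose by 1.44 (SE 0.17, adjusted p = 0.00018). Of 15 other proton pump subunits 12 rose and 0 fell, with a median of 0.49; Atp6v1b2 (1.01, SE 0.13, adjusted p = 0.00031) and Atp6v0c (0.91, SE 0.14, adjusted p = 0.00071) were among them. Of 26 other membrane proteins 18 rose and 1 fell, with a median of 0.67. Clcn7, a chloride-proton exchanger, rose by 1.27 (SE 0.15, adjusted p = 0.00018), and Slc11a1, a metal transporter of macrophages, by 4.07 (SE 0.60, adjusted p = 0.00051). Igf2r, the mannose 6-phosphate receptor that carries new hydrolases to the lysosome, was the 1 that fell (-0.97, SE 0.23, adjusted p = 0.0062).

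Of 38 other autophagy genes, 8 were higher and 1 lower, with a median of 0.14; the share higher was not above the 24.9% of all genes. Tecpr1 (1.12, SE 0.20, adjusted p = 0.0014) and Plekhm1 (0.89, SE 0.13, adjusted p = 0.00045), both of which act where autophagosomes meet lysosomes, and Atg7 (0.58, SE 0.12, adjusted p = 0.0024) had the smallest p-values. Of 21 genes of mTORC1 and the Rag GTPases, 4 rose and 3 fell, with a median of 0.06, shares below the 24.9% and 20.8% of all genes. Lamtor4, a subunit of the lysosomal Ragulator complex, rose by 0.76 (SE 0.13, adjusted p = 0.00099), while Nprl3, a subunit of the complex that inhibits Rag signalling, fell by 0.75 on the log2 scale (SE 0.15, adjusted p = 0.0020).

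**Figure D5:**
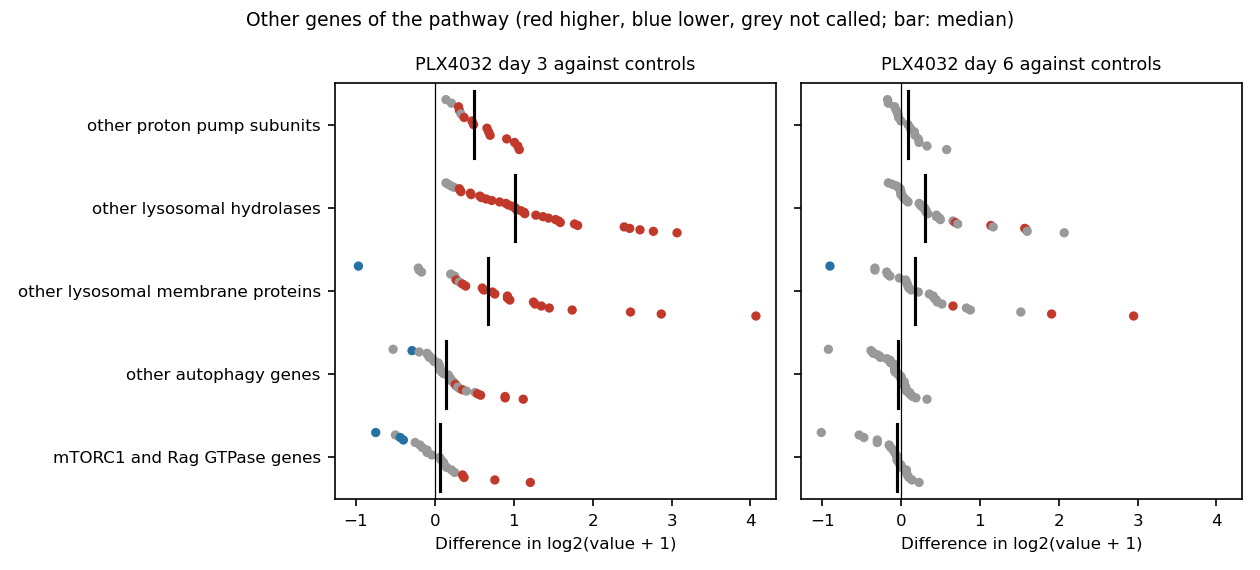
Difference from the controls in log2(value + 1) for the genes of 5 pathway lists outside the set at day 3 (left) and day 6 (right), with 1 point per gene coloured by call and a bar at each list's median. The medians at day 3 are 1.02 for hydrolases, 0.67 for membrane proteins, 0.49 for pump subunits, 0.14 for autophagy genes and 0.06 for mTORC1 and Rag genes.

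At day 6, where 5.92% of all genes were called, these lists held 4 higher hydrolases of 35, among them Acp5, the tartrate-resistant phosphatase of osteoclasts and macrophages (1.57, SE 0.39, adjusted p = 0.045). They also held 3 higher membrane proteins and 1 lower of 26, and 0 called pump, autophagy or mTORC1 genes (limma, 3, 4 and 5 at an unadjusted p under 0.05). Slc11a1 was still 2.95 above the controls (SE 0.60, adjusted p = 0.034). At day 18 the hydrolase list had 1 higher and 1 lower gene of 35, near the 7.92% of all genes, and Igf2r was lower by a difference of -1.20 (SE 0.23, adjusted p = 0.013). At day 27, where 6.67% of all genes were called, Scarb2, a lysosomal membrane protein, rose by 0.59 (SE 0.09, adjusted p = 0.0044), and Galns, a sulfatase, fell by 0.49 on the log2 scale (SE 0.08, adjusted p = 0.0058).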

How the data were processed

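A single deposited table lists a signal for every gene symbol (matched regardless of case) in 14 tumours. The authors call this signal TPM in the table's name, but 5 of 14 column sums exceed 1000000, and no source used here says how it was rescaled. Kallisto, sleuth and mm10 stand in the submitters' processing notes without versions. Libraries came from Trizol RNA and an Illumina TruSeq kit, per the labels' protocols.

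log2(value + 1) was fitted with limma 3.58.1 in R 4.3.3 on 6 group means with a variance trend. Each treated day was set against the mean of the control days 3 and 6, weighted equally. The method was tested on simulated data, and 29 alternatives were run. The set, the pathway and marker lists and the tests were chosen with earlier results of these data known. Full statistics are given for up to 8 called genes with the largest differences per comparison, and for up to 3 genes per list and comparison. For 10 fixed genes they are given on each treated day against the controls, while the other comparisons print only some of these. Other genes named with values were chosen after these were seen. Gene positions come from GENCODE on GRCm38. Some genes of the pathway lists are counted but not reported by name here.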

Additional observations from a re-analysis of the deposited data

Results flagged for a closer look

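Of 82 groups of 4 tumours tested (each of the 41 genes in the controls of both days and in PLX4032 day 27), 4 had a tumour set apart from the others, where chance gives about 1 in 20. Naglu was 25.1 in control day 6 tumour 1 against 30.9 to 32.1 in the other controls. Lamp2 was 190.0 in control day 6 tumour 2 against 173.5 to 176. Uvrag was 20.4 in control day 3 tumour 2 against 13.4 to 14.4, and 10.5 in PLX4032 day 27 tumour 1 against 12.8 to 13.1.

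The 21 genes that fell between PLX4032 day 3 and day 6, described above, are by the same test those whose effects on these days differ (limma, adjusted p under 0.05; the shared controls cancel out). Among all genes 7.34% were lower, and the count was 10 without PLX4032 day 3 tumour 2. The differences, in log2(value + 1), were -1.10 for Tfeb, -0.50 for Tfe3 and -0.72 for Flcn among the regulators. Among the glycosidases they were -1.11 for Hexa, -0.85 for Neu1 and -0.49 for Naglu, and among the membrane glycoproteins -0.78 for Lamp1 and -0.65 for Lamp2. The proteases Ctsa, Ctsb, Ctsd, Ctsz and Tpp1 had -1.04, -1.38, -1.48, -0.86 and -0.83. Npc1 had -0.79 and Psap -1.51. The autophagy genes Sqstm1, Map1lc3b, Gabarap and Gabarapl1 had -0.55, -0.72, -0.72 and -0.64, and the pump subunits Atp6v0d1 and Atp6v0d2 had -0.75 and -1.94.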

How the results depend on the processing

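The number of genes called at day 3 (28) was 19 to 29 when single tumours were left out and 23 to 29 under the other alternatives; late against early (27) gave 21 to 28 and 24 to 29, and the controls gave 0 throughout. At day 6 (0) the count was 1 with columns rescaled to a sum of 1000000, 1 with quantile normalisation and 0 to 5 with a tumour left out. At day 18 (2) it was 1 with the rescaled columns, 0 on the compared groups alone, 1 with control day 3 and 0 with control day 6 as the only control, 1 with day 27 tumours averaged as 1 with 3 and 2 with 4, and 0 to 4 with a tumour left out. At day 27 (1) it was 2 with a pseudocount of 0.1, 0 with the rescaled columns, 2 with quantile normalisation, 4 with sample weights, 0 on the compared groups alone, 0 with control day 6 as the only control, 0 under each of the 3 averagings, and 0 to 3 with a tumour left out. For day 6 against day 3 (21) it was 11 on the compared groups alone and 10 to 24 with a tumour left out. Fewer samples enter the fits on compared groups; for the rest the cause was not tested. No call reversed. Quantile normalisation moved the median of all genes at day 3 by -0.17 and the share of higher calls among all genes from 54.4% to 38.9%. The same share at day 6 went from 75.9% to 60.4%, or to 90.2% with the rescaled columns, and at day 18 from 68.4% to 44.9%, or to 56.4% with median-of-ratios rescaling. At day 27 it went from 53.7% to 74.3%, and for day 6 against day 3 from 59.8% to 69.9%, both with the rescaled columns. No paired analysis was possible because the columns carry no animal numbers. Without read counts, depth cannot be weighed.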
